A study of Saccharomyces cerevisiae with 24 samples.

Results

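The genes described here encode the subunits of the yeast proteasome, the factors that help to assemble it or that bind it, and RPN4, the transcription factor of the module. They were chosen by name: of 39 listed loci, 31 had a row among the 4442 orthologous gene pairs of the files, and PRE9, PRE2, PRE4, RPN9, RPN10, RPN12, RPT3 and RPT4 were not analysed here. The 31 genes were 6 subunits of the alpha ring and 5 of the beta ring of the core particle, 9 RPN subunits and 4 RPT subunits of the regulatory particle, RPN4, and 6 assembly factors or associated proteins. Messenger RNA was counted in budding yeast at sites that differ between 2 strains, the laboratory strain BY4741 (BY) and the vineyard-derived strain RM11-1 (RM), so that each read was given to the BY or the RM allele of a gene. The hybrid group was an a/alpha diploid of BY4741 and RM11-1alpha, in which every cell held both alleles in 1 nucleus. The co-culture group held haploid MAT-a cells of BY4741 and of RM11-1a in the same flask, so that BY and RM reads came from different cells. Both groups had 12 libraries from 4 technical-replicate cultures, which were shaken at 250 rpm at 30 °C and grown between an OD600 of 0.1 and 1.0, with no other treatment named. The RM parent of the hybrid and the RM strain of the co-culture are thus different strains, of opposite mating type, and each group is 1 cross or 1 pair of strains.

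The proteasome is the protease that degrades ubiquitin-tagged proteins in the cytosol and nucleus. Its barrel-shaped core particle has outer alpha rings that gate the channel and inner beta rings that hold the active sites, and a regulatory particle of RPN and RPT subunits binds the ubiquitin chain, unfolds the substrate and feeds it into the core. In yeast, Rpn4 binds a short promoter element, the proteasome-associated control element, and activates most subunit genes, and Rpn4 is itself a rapidly degraded substrate of the proteasome.

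The element was common upstream of these genes, as its name implies, so the counts below are a description and no test. Promoters (from 250 bases before the start codon to its first 50 bases of coding sequence, S288C reference of the BY lineage, RefSeq R64) were searched on both strands for GGTGGCAAA and for its core TGGCAAA, which every GGTGGCAAA contains. GGTGGCAAA lay upstream of 21 of the 31 genes (67.7%), against 51 of the 4325 promoters of all matched gene pairs (1.18%), which include the 21. The core alone lay upstream of 25 of the 31 (80.6%), against 323 of 4325 (7.47%). In the 21 promoters the first base of the motif lay 183 to 84 bases before the start codon (median 124), on the strand of the gene in 16 and on the other strand in 5 (SCL1, PRE6, RPN3, RPN7 and RPT1). PRE5, PUP1, RPN8 and UBP6 held only the core, and RPN13, RPN4, UMP1, PBA1, RPN14 and NAS6 held neither. A match is a description of letters, and the RM promoters were not analysed here.

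The promoters of 5 core and regulatory particle genes to which the results return are printed 5′ to 3′ on the strand of the gene, with the motif in capitals. PRE7 lies on the plus strand at chrII:140997-141296, RPT2 on the plus strand at chrIV:437797-438096, SCL1 on the minus strand at chrVII:475198-475497, PRE3 on the plus strand at chrX:434913-435212 and PUP1 on the minus strand at chrXV:631702-632001. In SCL1 the capitals mark the reverse complement of the motif, and in PUP1 they mark the core, since the whole motif was not there.
PRE7: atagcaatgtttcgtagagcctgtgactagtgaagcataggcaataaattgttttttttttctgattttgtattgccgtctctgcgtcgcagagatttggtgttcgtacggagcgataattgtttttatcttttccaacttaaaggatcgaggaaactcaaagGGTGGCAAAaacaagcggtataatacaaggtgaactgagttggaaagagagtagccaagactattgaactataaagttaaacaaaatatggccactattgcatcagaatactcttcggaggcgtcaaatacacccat
RPT2: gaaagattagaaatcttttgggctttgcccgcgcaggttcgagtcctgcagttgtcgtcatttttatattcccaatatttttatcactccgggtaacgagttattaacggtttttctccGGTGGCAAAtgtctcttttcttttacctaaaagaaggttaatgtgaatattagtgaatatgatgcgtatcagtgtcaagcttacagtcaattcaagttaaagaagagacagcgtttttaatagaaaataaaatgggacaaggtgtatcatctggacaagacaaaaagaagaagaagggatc
SCL1: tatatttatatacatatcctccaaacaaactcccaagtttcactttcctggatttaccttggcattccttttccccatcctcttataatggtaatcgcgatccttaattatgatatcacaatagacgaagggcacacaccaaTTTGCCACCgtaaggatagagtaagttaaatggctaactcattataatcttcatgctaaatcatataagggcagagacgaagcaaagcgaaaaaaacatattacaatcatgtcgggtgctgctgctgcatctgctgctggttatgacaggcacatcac
PRE3: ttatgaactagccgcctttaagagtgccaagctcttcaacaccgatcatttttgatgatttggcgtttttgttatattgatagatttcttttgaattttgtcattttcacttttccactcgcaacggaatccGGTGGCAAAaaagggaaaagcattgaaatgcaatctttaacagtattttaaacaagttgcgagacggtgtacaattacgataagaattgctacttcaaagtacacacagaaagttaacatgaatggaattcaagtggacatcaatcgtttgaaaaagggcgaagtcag
PUP1: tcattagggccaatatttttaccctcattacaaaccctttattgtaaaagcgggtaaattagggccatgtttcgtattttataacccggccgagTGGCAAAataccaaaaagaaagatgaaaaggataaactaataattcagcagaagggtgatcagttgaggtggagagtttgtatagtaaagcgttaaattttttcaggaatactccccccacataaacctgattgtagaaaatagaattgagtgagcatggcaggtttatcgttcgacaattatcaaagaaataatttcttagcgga

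**Figure D1:**
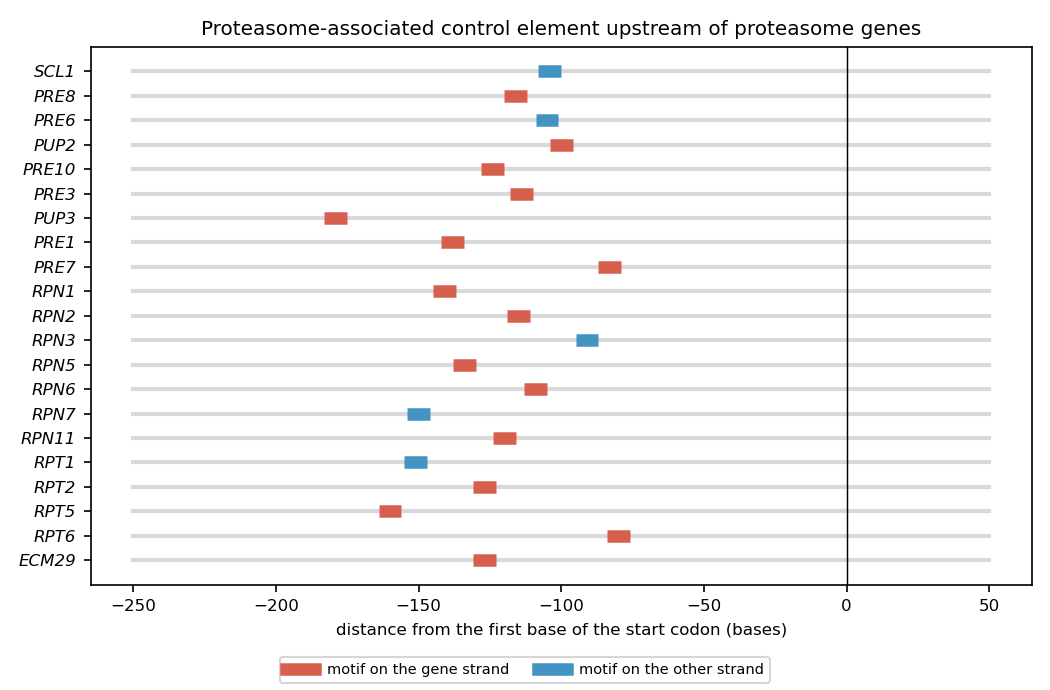
Position of GGTGGCAAA in the promoters of the 21 proteasome genes that hold it, in bases from the start codon (x axis, 0 is the first base of the codon), with 1 grey line per gene for the searched window. Red boxes mark the strand of the gene (16 genes) and blue boxes the other strand (5 genes), and every motif starts between 183 and 84 bases before the start codon.

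The libraries held 165503 to 232428 assigned reads in the hybrid (2556935 in all) and 199838 to 227175 in the co-culture (2576715 in all). Libraries were summed into sets in which every pair agreed within sampling noise, and each set was counted as 1 sample. Some libraries of different sets also agreed, such as co-culture libraries 7 and 11 (chi-square test, p = 0.341), so the sets are not all distinct. The summing left 6 summed replicates in each group, of 202848 to 864207 and 224041 to 636969 reads. They outnumber the 4 cultures, and the labels do not tie libraries to cultures, so p-values measure only the spread between these samples, which may be technical. Genes that haploid MAT-a cells use to mate matched the labels: STE2, the receptor for alpha pheromone, had 141 hybrid reads and 18145 co-culture reads. LYS2, of lysine synthesis, had 2 hybrid RM reads and 590 co-culture RM reads, so the RM strains of the groups differed at this locus. Because a read was counted only where it covered a strain difference, and the number of such sites per gene is not known, levels are compared between samples and alleles of 1 gene and never between genes.

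Summed together, the proteasome genes took a larger share of the reads in the hybrid than in the co-culture, and in the co-culture a larger share in BY cells than in RM cells. The 31 genes together received 1.25% (lowest), 1.32% (median) and 1.42% (highest) of the assigned reads of a hybrid replicate, with a mean of 1.33% ± 0.055 (SD, n = 6). In the co-culture they received 1.13%, 1.16% and 1.21%, with a mean of 1.16% ± 0.034 (SD, n = 6), so the groups did not overlap. These are shares of unscaled reads, to which RPN3, RPN1, RPT6 and RPN13 gave the most, and without scaling the median gene of all tested was also higher in the hybrid (log2 0.12, against 0.01 with scaling).

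Within the co-culture, the share was computed of the reads of each strain separately, so that it does not depend on the mix of strains in the flask. Of the BY reads, 1.27% ± 0.049 (SD, n = 6, 1.21 to 1.35%) fell on proteasome genes, and of the RM reads 1.07% ± 0.025 (1.04 to 1.10%). Every co-culture replicate was higher in its BY reads than any was in its RM reads. These shares are also unscaled, and without scaling the median gene of all tested was lower in RM cells (log2 -0.05, against 0.01 with scaling). In the hybrid the same shares were 1.34% ± 0.072 for BY alleles (1.25 to 1.46%) and 1.32% ± 0.043 for RM alleles (1.25 to 1.37%), and they overlapped over most of their range. By role, the RPN subunits took 0.715% ± 0.031 of BY reads and 0.597% ± 0.018 of RM reads in the co-culture, and these did not overlap between the strains. Nor did those of the beta ring (0.152% ± 0.019 and 0.112% ± 0.0067) and of the RPT subunits (0.175% ± 0.0072 and 0.148% ± 0.010), while the alpha ring (0.131% ± 0.011 and 0.123% ± 0.014) and the assembly and associated factors (0.0953% ± 0.0025 and 0.0871% ± 0.011) overlapped. No test was made on these summed shares, since the genes were chosen with earlier results of these data known.

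**Figure D2:**
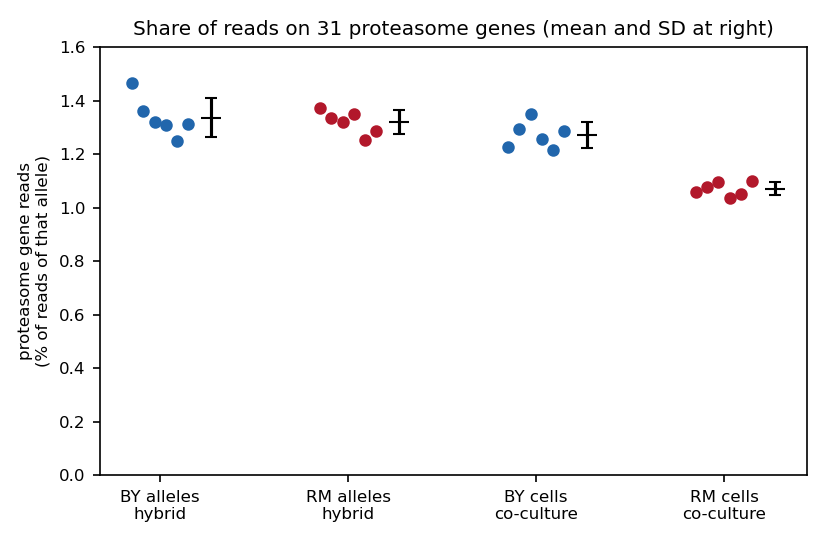
Reads on the 31 proteasome genes as a percentage of all reads of the same allele or strain (y axis), 1 point per summed replicate, with the mean and SD beside the points. BY and RM alleles of the hybrid sit between 1.25 and 1.46%, BY cells of the co-culture between 1.21 and 1.35%, and RM cells of the co-culture lowest, between 1.04 and 1.10%.

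RPN4 (YDL020C), the activator, was read too rarely for the tests, with 77 hybrid and 57 co-culture reads. Its total level was 20.4, 30.5 and 34.9 CPM (lowest, median and highest replicate, where CPM is the normalised read count at a common library size, after TMM scaling) in the hybrid and 9.22, 20.1 and 35.4 CPM in the co-culture. The 2 groups overlapped. By allele the hybrid had 37 BY and 40 RM reads, and the co-culture 17 BY and 40 RM reads. With the filter on low counts removed, the log2 ratio of RM to BY reads in the co-culture was 1.00 (SE 0.42, edgeR quasi-likelihood test, unadjusted p = 0.0171, adjusted p = 0.0611), which did not pass, and the total difference of hybrid minus co-culture was 0.34 (SE 0.26, adjusted p = 0.303). UBP6, the deubiquitinase that docks on the regulatory particle, had 45 and 30 reads and also stayed under the filters. The other 29 genes entered every test.

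The first comparison asked whether the total level of each gene, both alleles summed, differed between diploid hybrid and haploid cells. It used edgeR's quasi-likelihood test over 2793 gene pairs, with Benjamini-Hochberg adjusted p under 0.05 as the call. Of the 29 proteasome genes, 10 were higher in the hybrid, 4 were lower and 15 did not pass, with the changes under another setting given after the RPN subunits. Over all gene pairs tested 61.3% were called, 29.5% higher and 31.8% lower, so a call by itself was common. The log2 difference lay below 0 for 14 of the 29 genes, against 49.3% of all gene pairs, its median was 0.00 and 0.01, and the largest change of a proteasome gene was 0.59 in size. In bulk RNA, cell size, cell number and RNA per cell cannot be told apart, and a difference is one of relative level.

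The alpha ring held the steepest rise and the steepest fall of the core. SCL1 (YGL011C), an alpha-ring subunit, was at 828, 884 and 962 CPM in the hybrid and 539, 672 and 765 CPM in the co-culture. All hybrid replicates lay above all co-culture replicates, and the log2 difference was 0.38 (SE 0.06, adjusted p = 7.2e-08). PRE8 (YML092C), another alpha-ring subunit, was at 164, 169 and 196 CPM in the hybrid and 227, 266 and 334 CPM in the co-culture. Here all hybrid replicates lay below the co-culture, by a log2 difference of -0.59 (SE 0.09, adjusted p = 5.7e-08). The other alpha-ring genes, PRE6, PUP2, PRE5 and PRE10, had differences from -0.24 to 0.10 and did not pass.

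The beta ring had calls in both directions, higher for PRE7 and PRE1 and lower for PRE3. PRE7 (YBL041W), a beta-ring subunit without an active site, was at 549, 573 and 626 CPM in the hybrid and 434, 456 and 487 CPM in the co-culture. Its groups did not overlap and it was higher in the hybrid by 0.32 (SE 0.06, adjusted p = 7e-06). PRE1 (YER012W), which also carries no active site, was higher by 0.19 (SE 0.08, adjusted p = 0.039), but it missed the threshold without hybrid replicate 6 (0.18) or co-culture replicates 1 (0.18), 2 (0.19) or 4 (0.16), each left out alone. PRE3 (YJL001W), the subunit with the caspase-like activity, was at 177, 270 and 333 CPM in the hybrid and 263, 365 and 421 CPM in the co-culture. These groups overlapped, and PRE3 was lower in the hybrid by a log2 difference of -0.45 (SE 0.09, adjusted p = 6.8e-06). PUP1 (YOR157C), the subunit with the trypsin-like activity, differed by 0.07 (SE 0.10, 95% interval -0.12 to 0.26, adjusted p = 0.53) and PUP3 by -0.10, and neither passed.

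Of the RPN subunits, 6 of 9 were called higher in the hybrid and none lower by edgeR, although RPN5, RPN7 and RPN8 turned sign under the base-composition setting given after them. RPN5 (YDL147W), a scaffold subunit of the lid, was at 762, 888 and 1055 CPM in the hybrid and 612, 687 and 824 CPM in the co-culture. The groups overlapped by the lowest hybrid and the highest co-culture replicate, and the log2 difference was 0.39 (SE 0.06, adjusted p = 1.4e-07). RPN8 (YOR261C), the lid partner of the deubiquitinase Rpn11, was higher by 0.32 (SE 0.07), RPN13 (YLR421C), a ubiquitin receptor, by 0.21 (SE 0.05), the lid subunits RPN6 and RPN7 by 0.20 (SE 0.06) and 0.15 (SE 0.06), and RPN1 (YHR027C), the large scaffold of the base, by 0.11 (SE 0.05). RPN11, RPN3 and RPN2 did not pass. The groups overlapped for each of these 6 called genes. RPN7 did not pass without hybrid replicate 2 (0.12). RPN1 did not pass without hybrid replicates 1 (0.11), 4 (0.11) or 5 (0.09) or co-culture replicates 3, 4 or 5 (0.11 each), each left out alone.

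Over all genes the total difference had a trend with the share of A in the coding sequence, and RPN5 (37.37%) and RPN8 (37.36%) had the highest A share of the proteasome genes (median 31.96%, against 32.59% over 2780 gene pairs). With that trend removed RPN5 was at -0.10, RPN7 at -0.02 and RPN8 at -0.17 (adjusted p = 0.027), all with the sign turned, and RPN13 (0.06) and RPT2 (0.18) no longer passed. Of the 7 regulatory particle genes called higher, RPN1 (0.27) and RPN6 (0.18) passed in both settings, as did SCL1, PRE1 and PRE7 of the core. All 4 lower calls were shared, at smaller sizes (PRE8 -0.35, NAS6 -0.33, ECM29 -0.29 and PRE3 -0.20). PRE10 (0.35), PUP1 (0.34), PUP3 (0.37) and RPN2 (0.42) passed as higher and UMP1 (-0.35) as lower under that setting alone. What the trend reflects was not tested.

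Of the RPT ATPases, which unfold the substrate, RPT2 (YDL007W) alone passed. It was at 125, 141 and 161 CPM in the hybrid and 79.8, 108 and 130 CPM in the co-culture, overlapping by a narrow margin, and was higher by 0.37 (SE 0.12, adjusted p = 0.0067). RPT6 (YGL048C) differed by -0.03 (SE 0.05, 95% interval -0.13 to 0.07), and RPT1 and RPT5 did not pass. All 5 tested assembly and associated genes had a value below 0, and 2 were called. NAS6 (YGR232W), a chaperone of the base, was at 135, 188 and 219 CPM in the hybrid and 228, 276 and 336 CPM in the co-culture. Its groups did not overlap, with a log2 difference of -0.57 (SE 0.09, adjusted p = 2.9e-07). ECM29 (YHL030W), which binds the assembled proteasome, was lower by -0.39 on the log2 scale (SE 0.10, adjusted p = 0.00032), with overlapping groups. The chaperones UMP1, PBA1 and RPN14, at -0.15, -0.13 and -0.08, did not pass.

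**Figure D3:**
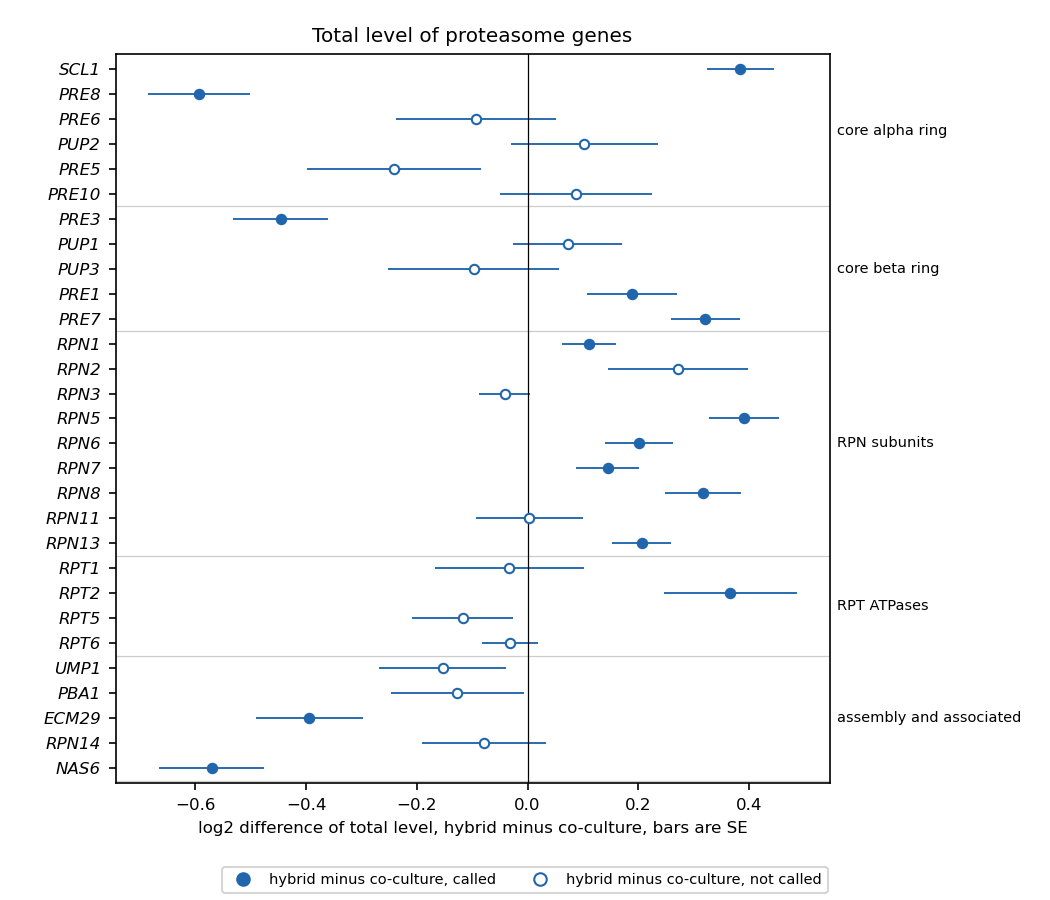
Log2 difference of the total level, hybrid minus co-culture (x axis), for the 29 tested proteasome genes in order of role, with bars of 1 SE. Filled points passed the adjusted p of 0.05: 10 lie right of 0, of which RPN5, RPN7 and RPN8 turned sign with the A-share trend removed, and 4 lie left of it (PRE8, PRE3, ECM29 and NAS6).

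The second comparison took the ratio of RM to BY reads inside the hybrid, where both alleles share 1 nucleus, which is the measure of cis differences. One edgeR fit over 2661 gene pairs, blocked on the summed library and with each allele column TMM-scaled, gave this ratio, the ratio in the co-culture and the difference between both. The ratios share libraries, so their values are set side by side and are not independent. In the hybrid the RM allele was higher for 2 of 29 proteasome genes and lower for 3, or 17.2%, against 20.1% of all gene pairs (10.3% higher and 9.73% lower), which is near the background. The log2 ratio lay below 0 for 15 of the 29, against 50.1% of all gene pairs, and its median was -0.00 for both.

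PRE7 had the largest cis difference of the called genes. Its RM allele had 628 reads and its BY allele 900 in the hybrid. The scaled log2 ratio of RM to BY was -0.62, -0.47 and -0.46 (lowest, median and highest replicate), below 0 in 6 of 6. The fitted ratio was -0.52 (SE 0.08, adjusted p = 4e-10). SCL1 went the other way, with 1285 RM and 1060 BY reads and scaled ratios of 0.13, 0.28 and 0.35. It was above 0 in 6 of 6 replicates, with a fitted ratio of 0.28 (SE 0.06, adjusted p = 0.00011).

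The other 3 calls were less stable. UMP1 (YBR173C), a chaperone of core assembly, had 207 RM and 156 BY reads, RM higher in 5 of 6 replicates and a ratio of 0.40 (SE 0.16, adjusted p = 0.047). Its call was lost without hybrid replicates 1 (0.41), 2 (0.37), 4 (0.45) or 6 (0.28), each left out alone. RPN5 had a ratio of -0.19 (SE 0.06, adjusted p = 0.012), RM lower in 6 of 6, and its call was lost without hybrid replicate 4 or 6 (-0.17 each). RPN6 had a ratio of -0.21 (SE 0.07, adjusted p = 0.023), RM lower in 5 of 6, and its call was lost without hybrid replicates 1 (-0.19), 2 (-0.19) or 6 (-0.14). DESeq2 called none of these 3, at adjusted p from 0.185 to 0.318. RPT6 stood for the balanced genes, with 1606 BY and 1605 RM reads and a ratio of -0.00 (SE 0.05, 95% interval -0.11 to 0.10, adjusted p = 0.99).

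In the third comparison, the ratio of RM to BY reads between the haploid cells of the co-culture, 14 of 29 proteasome genes were called lower in RM cells, 1 was called higher and 14 did not pass. Over all gene pairs 40.3% were called, 18.5% lower and 21.8% higher in RM. The log2 ratio was below 0 for 22 of the 29 (75.9%), against 48.7% of all gene pairs, and the median was -0.19 against 0.01. The shifts were small for most genes, and 10 of the 14 lower calls were smaller than 0.40 in size. The number of lower calls fell to 9 without co-culture replicate 2, to 8 without replicate 3 and to 9 without replicate 4, each left out alone, and DESeq2 called 7. Over all 2661 gene pairs DESeq2 called 350 lower in RM, against 493 with edgeR.

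Among core genes PRE7 again had the largest ratio. It had 446 RM and 703 BY reads in the co-culture, and scaled ratios of -1.31, -0.91 and 0.10. Co-culture replicate 1, with 55 RM and 44 BY reads, was the 1 replicate above 0, and the other 5 lay far below it. The fitted ratio was -0.87 (SE 0.09, adjusted p = 1.4e-21), and -0.96 without replicate 1. PRE6 (YOL038W), an alpha-ring subunit, was lower in RM in 6 of 6 replicates, at -0.56 (SE 0.19, adjusted p = 0.0098) on 106 RM and 135 BY reads, but not called without co-culture replicate 3 (-0.42). PRE1 was at -0.37 (SE 0.12) and lost its call without replicate 3 (-0.24).

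Of the beta subunits with an active site, PRE3 and PUP1 had a row in the files, and their calls had opposite signs. PRE3 had scaled ratios of -0.68, -0.37 and 0.13, RM lower in 5 of 6 replicates, and a fitted ratio of -0.28 (SE 0.10, adjusted p = 0.013). That call was lost without co-culture replicate 3 (-0.21) or 4 (-0.25). PUP1 was the single gene called higher in RM, with 306 RM and 186 BY reads and scaled ratios of 0.17, 0.46 and 0.73. It was above 0 in 6 of 6 replicates, at 0.50 (SE 0.14, adjusted p = 0.00095), and the call held in all alternatives listed at the end. In the hybrid the PUP1 ratio was 0.13 (SE 0.13) and did not pass.

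All 9 RPN subunits had ratios below 0 in the co-culture, and 7 were called. RPN1 had scaled ratios of -0.42, -0.19 and -0.01, below 0 in 6 of 6, and a fitted ratio of -0.25 (SE 0.05, adjusted p = 1e-05). RPN3 (YER021W), a lid scaffold, had scaled ratios of -0.33, -0.22 and -0.09, also below 0 in 6 of 6, and a fitted ratio of -0.20 (SE 0.04, adjusted p = 2e-05). Both are among the most deeply read proteasome genes, with 3171 and 4609 co-culture reads. RPN5 at -0.28 (SE 0.07), RPN8 at -0.25 (SE 0.08) and RPN6 at -0.19 (SE 0.08) were lower in 6 of 6 replicates, and RPN2, the second scaffold of the base, at -0.43 (SE 0.18) and RPN13 at -0.17 (SE 0.06) in 5 of 6. The weaker of these calls turned on single libraries. RPN2 was lost without co-culture replicates 2, 3, 4 or 6 (-0.46 to -0.30), RPN6 without 1, 2, 3 or 5 (-0.22 to -0.13) and RPN13 without 2, 3, 5 or 6 (-0.16 to -0.14).

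The 4 RPT subunits were also all below 0, and 2 were called. RPT2 had 118 RM and 155 BY reads, scaled ratios of -1.16, -0.61 and 0.20, and a fitted ratio of -0.60 (SE 0.18, adjusted p = 0.0027), lost without co-culture replicate 4 (-0.46). RPT6 was at -0.13 (SE 0.05, adjusted p = 0.037), lost without replicates 1, 2, 4 or 5 (-0.13 to -0.11). Of the assembly and associated genes ECM29 was called, at -0.28 (SE 0.12, adjusted p = 0.046), lost without co-culture replicates 1, 2, 4, 5 or 6 (-0.31 to -0.20). NAS6 (0.13) and UMP1 (0.27) were above 0 and did not pass.

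**Figure D4:**
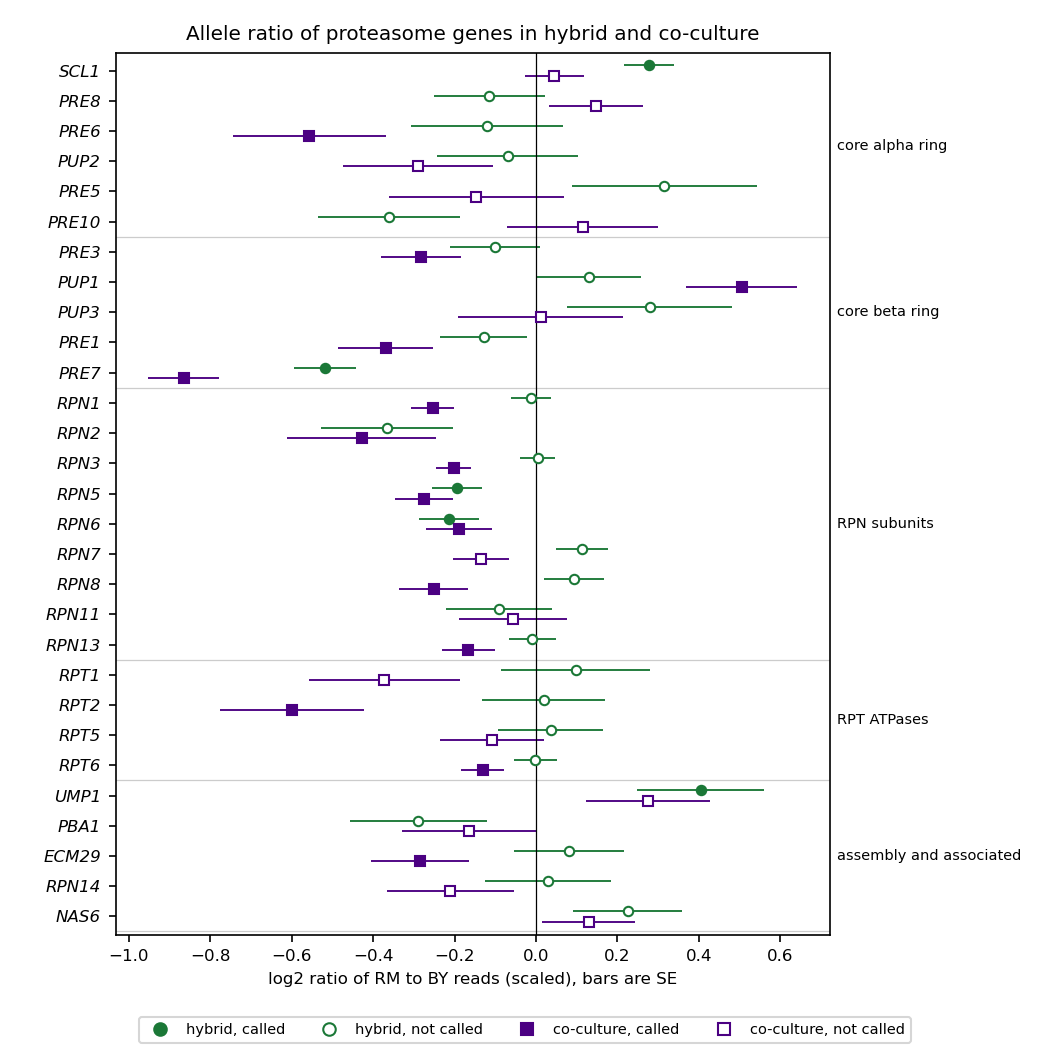
Fitted log2 ratio of RM to BY reads (x axis) in the hybrid (green circles) and in the co-culture (purple squares) for the 29 tested proteasome genes in order of role, with bars of 1 SE and filled symbols for adjusted p under 0.05. The hybrid ratios spread around 0 with 5 calls, and the co-culture ratios lie mostly left of 0, with 14 calls there and PUP1 alone at the right.

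The fourth comparison tested the difference itself, the co-culture ratio minus the hybrid ratio, which is taken as the measure of trans differences. The groups also differ in ploidy, mating type and RM strain, which this difference cannot separate. Of 29 proteasome genes, 6 had a lower RM ratio in the co-culture than in the hybrid and none a higher one by edgeR, a share of 20.7%, equal to the 20.7% of all gene pairs called. Over all gene pairs 8.76% were called below 0 and 12% above. Without TMM scaling that split turned over, to 232 gene pairs above and 334 below, with a median of -0.08 over all gene pairs and -0.29 for the 29 genes, 9 of which were then called below 0. Values lay below 0 for 23 of the 29 genes (79.3%), against 49.2% of all gene pairs, with a median of -0.21 against 0.01. At an unadjusted p under 0.05 edgeR had 1 gene above 0, PUP1 (0.38, SE 0.19, adjusted p = 0.15), and 8 below, and DESeq2 had 0 above and 6 below, none of them past adjustment. Of all 2661 gene pairs, in both directions together, 832 had an unadjusted p under 0.05 with edgeR and 552 with DESeq2. The shares of the 29 genes were near these.

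The 6 called genes were 4 RPN subunits, 1 ATPase and PRE7. RPN3 went from scaled ratios of -0.34, 0.02 and 0.10 in the hybrid to -0.33, -0.22 and -0.09 in the co-culture. The groups overlapped through hybrid replicate 1, and the difference was -0.21 (SE 0.06, adjusted p = 0.0057). RPN1 went from -0.19, 0.00 and 0.35 to -0.42, -0.19 and -0.01, a difference of -0.24 (SE 0.07, adjusted p = 0.0069), with overlap. RPN8 went from -0.14, -0.03 and 0.31 to -0.37, -0.27 and -0.08, a difference of -0.34 (SE 0.11, adjusted p = 0.015), again with overlap. RPN7 differed by -0.25 (SE 0.09, adjusted p = 0.043), PRE7 by -0.35 (SE 0.12, adjusted p = 0.020) and RPT2 by -0.62 (SE 0.23, adjusted p = 0.041), on hybrid ratios of 0.11, -0.52 and 0.02.

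For RPT2 the hybrid replicates spread from -0.63 to 1.26, on 26 to 128 reads each, and the 2 replicates above 0.90 were replicates 1 and 5. None of the 6 calls held without every replicate in turn. RPN1 was lost without co-culture replicate 2 (-0.19), RPN3 without hybrid replicate 4 (-0.15), RPN8 without hybrid replicate 4 (-0.23), and PRE7 without co-culture replicate 5 (-0.32) or 6 (-0.27). RPN7 was lost without hybrid replicates 1, 2 or 4 or co-culture replicates 2 or 4 (-0.25 to -0.19), and RPT2 without hybrid replicates 1, 5 or 6 or co-culture replicates 2, 4, 5 or 6 (-0.62 to -0.48). The count of called genes was 3 without hybrid replicate 4, 3 without co-culture replicate 2 and 0 with DESeq2. Over all 2661 gene pairs DESeq2 called 188 above 0 and 115 below, against 319 and 233 with edgeR.

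**Figure D5:**
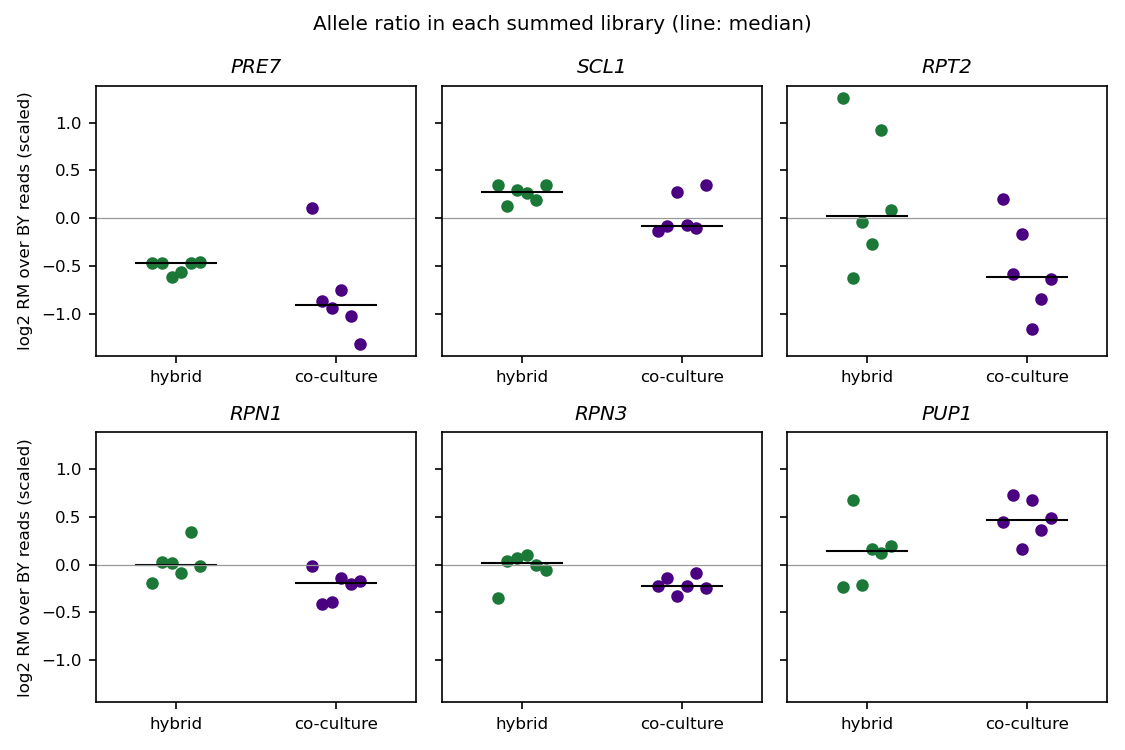
Scaled log2 ratio of RM to BY reads (y axis) in each summed replicate of the hybrid (green) and the co-culture (purple) for 6 proteasome genes, with a line at the median of each group. PRE7 has 1 co-culture point at 0.10 above the other 5, RPT2 spreads from -0.63 to 1.26 in the hybrid, and the medians of RPN1 and RPN3 go from 0.00 and 0.02 to -0.19 and -0.22.

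Taking the 3 allelic tests together, RPN5 and RPN6 passed for the hybrid ratio and for the co-culture ratio and not for the difference (cis only). RPN1, RPN3, RPN8 and RPT2 passed in the co-culture and in the difference and not in the hybrid (trans only). These names describe patterns of edgeR calls, and ploidy, mating type and RM strain differ between the groups as well. DESeq2 called 0 genes in the difference, and neither RPN5 nor RPN6 in the hybrid. Trans only made up 13.8% of the 29 genes and 13% of all gene pairs, and cis only 6.90% and 7.97%. PRE7 passed all 3 tests with the same sign for cis and trans (3.45% of the genes, 2.14% of all gene pairs). The other passing patterns, in 11 genes, were ambiguous (37.9%, against 20.6% of all gene pairs), and 11 genes passed no allelic test (37.9%, against 51.6%).

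Genes with and without the whole motif GGTGGCAAA of the control element were described separately. Of the 21 tested genes with GGTGGCAAA, 12 were called lower and none higher in RM cells of the co-culture by edgeR, with a median ratio of -0.25. Over all gene pairs 18.5% were called lower and 21.8% higher in RM cells. The 8 tested genes without GGTGGCAAA include PRE5, PUP1 and RPN8, which held its core. Of the 8, 2 (RPN8 and RPN13) were lower and 1 (PUP1) was higher, with a median of -0.16. All 5 genes of the trans calls other than RPN8 held GGTGGCAAA, as did 21 of the 29 tested genes, so this count is near the share of the list. Outside the proteasome list 30 gene pairs held it and 18 were tested. Of those, 4 were called lower and 2 higher in RM cells, with a median of -0.06. In the difference of co-culture and hybrid ratio, 3 of the 18 were called below 0, and 8.76% of all gene pairs were. Of the 18, 13 lay below 0, against 49.2% of all gene pairs, and the median was -0.19. In the hybrid ratio 4 of the 18 were called higher and 1 lower in RM, and of the 21 proteasome genes 1 and 3. Over all gene pairs 10.3% and 9.73% were. In total level 3 of the 18 were higher and 8 lower in the hybrid (median -0.19), and of the 21 proteasome genes 8 and 3 (median 0.09). Over all gene pairs 29.5% and 31.8% were. No test was made of the difference between these lists.

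The genes that feed and control the proteasome were taken from a list of 48, with 41 in the files. For the total level 31 were tested, and 5 were higher and 8 lower in the hybrid. The shares were 16.1% and 25.8%, against 29.5% and 31.8% of all gene pairs. UBP1, a deubiquitinase, was higher by 1.29 (SE 0.10), and the transcription factors HSF1 and YAP1 by 0.55 (SE 0.20) and 0.49 (SE 0.07). RSP5, a ubiquitin ligase, was at -1.13 (SE 0.10), PDR3, a drug-response transcription factor, at -0.74 (SE 0.11) and UBA1, the ubiquitin-activating enzyme, at -0.50 (SE 0.04). In the hybrid ratio 7 of 30 tested were higher and 4 lower in the RM allele. These shares were 23.3% and 13.3%, against 10.3% and 9.73% of all gene pairs. The higher calls were led by RSP5 (0.75), the shuttle factor RAD23 (0.49) and the ligase UFD4 (0.43). The lower calls were led by PDR3 (-0.66), the assembly chaperone IRC25 (-0.63) and YAP1 (-0.30).

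In the co-culture 6 of 30 were higher and 6 lower in RM cells, so the list had no single direction (median -0.04). Each share was 20%, near the 21.8% and 18.5% of all gene pairs. UBP12, a deubiquitinase, was at 0.82, the conjugating enzyme UBC1 at 0.70 and RSP5 at 0.57. PDR3, which together with Yap1 activates RPN4 transcription in yeast, had the largest ratio, -1.48 (SE 0.14, adjusted p = 1.5e-24), the conjugating enzyme UBC7 was at -1.18 (SE 0.22) and YAP1 at -0.49 (SE 0.10). PDR1, also listed as an RPN4 regulator, was at 0.04 (SE 0.22) and did not pass. RPN4 itself, under the filters, had 40 RM and 17 BY reads in the co-culture. In the difference of co-culture and hybrid ratio 1 gene was called above 0, UBP12 (0.87), and 6 below. These shares were 3.33% and 20%, against 12% and 8.76% of all gene pairs. Values lay below 0 for 19 of the 30 (63.3%, against 49.2% of all gene pairs), with a median of -0.16. The proteasome genes, at 79.3% and -0.21, thus shared this direction with the list. The lower calls were led by PDR3 (-0.82, SE 0.23), UFD4 (-0.76) and BLM10, an alternative cap of the core (-0.36). Whether any of these moves with the proteasome genes was not tested.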

How the data were processed

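The deposited files hold, per the file headers, raw counts of reads over BY and RM alleles for each gene pair and library, with no normalization. The aligner, the genome build and any filters on reads were not given in the sources used here. The genes and the lists were chosen with earlier results of these data known. Libraries of a group were compared in pairs by a chi-square test over allele counts of at least 20 reads in the pair. They were summed into sets in which every pair had p of at least 0.05 (complete linkage), and some pairs across sets also did. This definition was chosen because it gave the 6 summed replicates described for an earlier analysis of these data, and 12 unsummed libraries were an alternative. The quasi-likelihood test of edgeR 4.0.16 (R 4.3.3) was fitted over all gene pairs after TMM scaling, for total counts that averaged 10 or more reads per library in 1 group or both, and for allele counts with at least 100 reads in each group. P-values were Benjamini-Hochberg adjusted.

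Alternatives were DESeq2 1.42.0, no TMM scaling, no filter, unsummed libraries with and without the replicate number as a block, removal of a loess trend (span 0.75) with the A share of the coding sequence, and leaving out each summed replicate. All members are accounted for. Named in full were RPN4, PRE3, PUP1, RPT6, the 6 largest called total changes in each direction and every member called in an allelic test. Of the other pathway genes, the 3 largest called changes in each direction were named, and PDR1 as an RPN4 regulator that did not pass. Gene names and promoters came from RefSeq R64, which matched 4325 of 4442 gene pairs by locus tag.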

Additional observations from a re-analysis of the deposited data

Results flagged for a closer look

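The level and the RM share of the 29 tested genes were looked at in 58 groups of 6 summed replicates each, 116 in all. In 4 of the 58 groups of RM shares, and in 0 of the 58 groups of levels, 1 replicate lay far from the others, where chance alone flags about 5% of groups. The RM share of PUP3 was 41.7% in hybrid replicate 3, against 55.6 to 63.6% in the others. RPN3 stood at 43.9% in hybrid replicate 1, against 49.0 to 51.8%. RPN6 stood at 45.7% in co-culture replicate 3, against 50 to 52.3%, and without that replicate its co-culture ratio was -0.13 and not called. RPN13 stood at 60.2% in co-culture replicate 1, against 48.5 to 51.6%, and without that replicate its co-culture ratio was -0.22 in place of -0.17.

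For 6 genes the log2 ratio of RM to BY reads differed between co-culture and hybrid by edgeR's test of the difference itself. The difference was -0.35 for PRE7, -0.24 for RPN1, -0.21 for RPN3, -0.25 for RPN7, -0.34 for RPN8 and -0.62 for RPT2, with adjusted p from 0.0057 to 0.043. The groups overlapped in each of them, and DESeq2 called none.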

How the results depend on the processing

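Counts of total calls ranged from 8 to 11 higher and 4 to 6 lower over all alternatives. With the A-share trend removed, RPN5 (-0.10), RPN7 (-0.025) and RPN8 (-0.17) turned sign, and the cause was not tested. For the ratio in the hybrid, RM was called higher for 1 gene with DESeq2, for 1 without the filter and for 1 to 2 with 1 replicate left out, and lower for 1 gene with DESeq2 and for 1 to 3 with 1 replicate left out. In the co-culture RM was called lower for 7 genes with DESeq2, 9 without the filter and 8 to 14 with 1 replicate left out. The difference of ratios was called below 0 for 0 genes with DESeq2 and for 3 to 7 with 1 replicate left out. Over all gene pairs DESeq2 also called fewer than edgeR in each allelic comparison. The cause of these shifts was not tested. Without TMM scaling the total split over all gene pairs was 1066 higher and 699 lower, against 823 and 889, and the co-culture split was 475 higher and 601 lower in RM, against 579 and 493, with proteasome calls of 11 higher and 4 lower, and of 1 higher and 16 lower. Replicate numbers did not pair the libraries: over 12 pairs the correlation of deviations was -0.028 to 0.063, and 1 pair correlated best with its own number. With the replicate block on the 12 deposited libraries 11 genes were higher and 4 lower, the same counts as the 12 libraries gave without it. The allelic fits already hold the library as a block. Reads on variant sites limit the precision most for RPN4 and UBP6, with under 100 reads in each group.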
